A study of Gossypium herbaceum with 12 samples.

Results

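Leaves of Vagad and RAHS-14, a drought tolerant and a drought sensitive accession of the diploid cotton Gossypium herbaceum, were compared under drought on 6 of the 12 arrays of the series. The arrays were taken by their titles, 3 named tolerant and drought and 3 named sensitive and drought. Each array held leaf RNA of 1 plant, about 1 month old and grown in an earthen pot in a greenhouse. The Vagad drought and RAHS-14 drought plants had water withheld and were watered only every other week until the stress was visible, and the Vagad irrigated and RAHS-14 irrigated plants, 3 of each, were watered daily. All 4 groups shared the greenhouse, the tissue and the age. Each accession is a single line, so a difference between them is a difference between these lines only. The question was which transcripts separated the tolerant from the sensitive accession while both were short of water.

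Plants short of water close their stomata, accumulate compatible solutes and change the water channels of their membranes. Aquaporins carry water through the plasma membrane and through the tonoplast, the membrane of the vacuole. Chaperones keep proteins folded, flavonoids and other phenolics screen light and quench oxidants, and severe stress brings on leaf senescence, in which chlorophyll and proteins are taken apart and their nitrogen is exported.

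The arrays of Vagad drought plants 1 and 2 were unlike the other 10. The median signal of the cotton probe sets was 322 and 345 on these arrays, and 60.8 to 74.2 on the others. The 17 tag controls, probe sets of the array that target no cotton transcript, had median signals of 89.0 and 96.7 there, against 1.36 to 7.43 elsewhere. The rank correlation with the other 10 arrays had a median of 0.594 for plant 1 and 0.438 for plant 2. Plants 1 and 2 correlated with each other at 0.413, and with plant 3 at 0.603 and 0.444. Vagad drought plant 3 had a tag control median of 2.86 and a median rank correlation of 0.944, where the other 9 arrays ranged among themselves between 0.937 and 0.971. Signals of 3' over 5' probe sets for 6 control transcripts were 0.60, -0.71 and 1.95 on the log2 scale in Vagad drought plants 1, 2 and 3, and 1.75, 1.33 and 1.34 in the RAHS-14 drought plants. Plant 3 is therefore shown apart throughout, and a difference is reported only where plant 3 lay outside the range of the 3 RAHS-14 drought plants on the same side as the mean of the 3 Vagad plants.

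**Figure D1:**
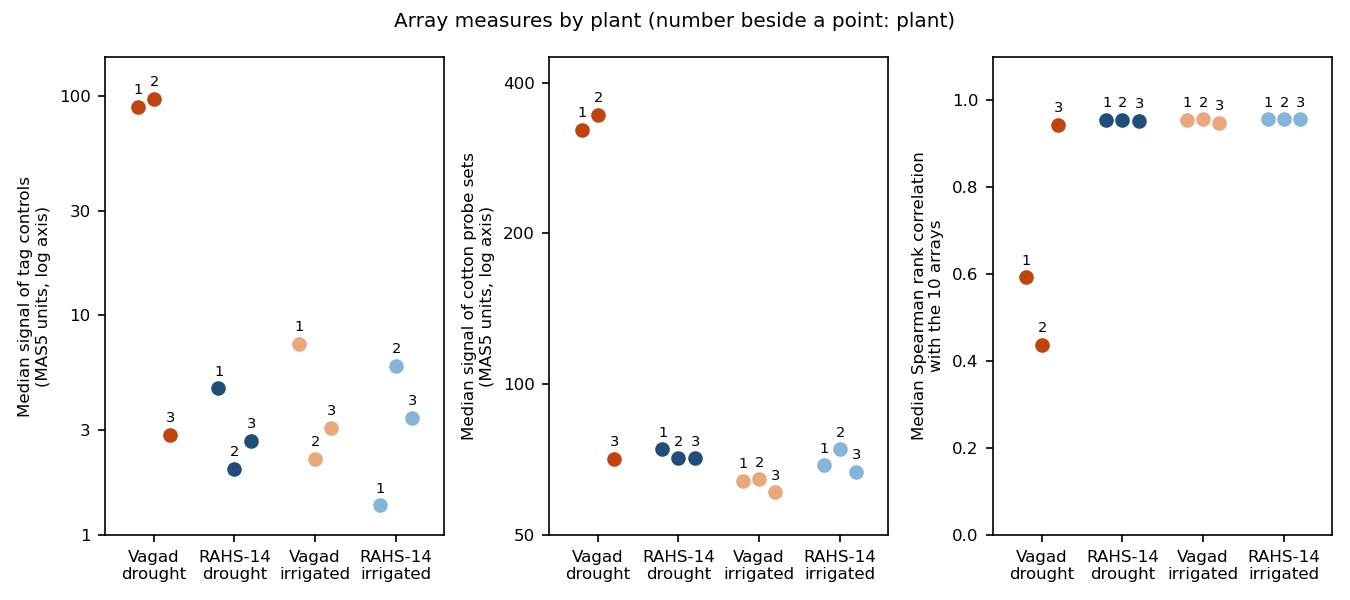
Median signal of the tag controls (left) and of the cotton probe sets (middle), both in MAS5 units on a log axis, and median rank correlation with the 10 arrays other than Vagad drought plants 1 and 2 (right), with 1 point per plant. Vagad drought plants 1 and 2 lie above 80 in tag signal and under 0.6 in correlation, and plant 3 lies with the other arrays.

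Leaf identity was checked on the photosynthesis and chlorophyll list, of which 12 of 21 named probe sets were tested. Their summed signal was 4373, 4017 and 4839 in Vagad drought plants 1, 2 and 3 and 4302 to 4407 in the RAHS-14 drought plants. A list for other tissues (fiber, embryo, phloem, nodule, seed and root proteins), with 10 of 12 probe sets tested, summed to 11291, 12700 and 18088 in the Vagad plants and 16852 to 16946 in RAHS-14. In the photosynthesis list 2 members were at the floor in each of Vagad plants 1 and 2, and 0 in plant 3 and in RAHS-14. In the other tissue list 1 of 10 members was called higher and 1 lower in plant 3, and 1 was at the floor in plant 3, 2 in each of plants 1 and 2, and 1 in RAHS-14 drought plant 1. The part of these levels in the results was not tested.

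Of 24029 probe sets other than controls, 12883 were tested. All values are log2 of the normalized signal, 1 unit being a fold of 2, and differences are Vagad minus RAHS-14. With limma's moderated test, an adjusted p (Benjamini-Hochberg) below 0.05 and a fold of 2 or more, plant 3 was higher than RAHS-14 at 328 probe sets (2.55%) and lower at 594 (4.61%), 922 in all (7.16%), each meeting the requirement above. The test itself called 454 (3.52%) higher and 662 (5.14%) lower. The median difference over all probe sets was -0.72 for the mean of the 3 Vagad plants and 0.02 for plant 3 alone. The 3-plant mean thus lay below RAHS-14 at most probe sets, and the requirement removed more of the higher than of the lower calls. Most differences were moderate: the median was 1.33 among the higher and -1.38 among the lower, and 285 of 328 and 502 of 594 were between 1 and 2 log2 units in size. The single Vagad array was taken to vary like the other groups, and leaving it out of this comparison is not possible. Of the 922, 665 were called in all 9 fits that left out another plant. A probe set was tested where it was above the median signal on at least 3 of the 12 arrays, and 41 of the 328 higher ones were above it on Vagad arrays only and 18 of the 594 lower ones on RAHS-14 arrays only.

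With all 3 Vagad drought plants against the 3 RAHS-14 drought plants, 148 probe sets were higher (1.15%) and 198 lower (1.54%), 346 in all (2.69%). Plant 3, and plants 1 and 2 as well, lay outside the RAHS-14 range at all 346, so the requirement on plant 3 removed 0. For comparison, all 3 Vagad plants were above the RAHS-14 range at 9.9% and below it at 21.8% of all probe sets tested. These shares include plants 1 and 2 and are not matched for signal level where a list is set against them below. The count rested on single arrays. It was 11, 12 and 12 without RAHS-14 drought plant 1, 2 or 3, and 551, 1021 and 6030 without Vagad drought plant 1, 2 or 3. Without an irrigated plant it was 57, 67 and 120 (Vagad plants 1, 2 and 3) and 50, 51 and 54 (RAHS-14 plants 1, 2 and 3). Only 11 of the 346 were called in all 12 of these fits. The fit shared 1 spread over the 4 groups, irrigated plants included. With only the 6 drought arrays limma called 0, and with array weights it also called 0. The named genes below therefore lead with plant 3, and the difference of the 3-plant means is given where it also passed. Plant 3 is part of both comparisons, so they are not independent.

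In irrigated plants 240 probe sets were higher in Vagad (1.86%) and 245 lower (1.9%), together 3.76%. A probe set called under drought and not in irrigated plants need not differ between the conditions. The test of the difference itself, given at the end of this paragraph, did not call most of the 594 lower probe sets. It also left many of the 328 higher ones uncalled. Of the 328 probe sets higher in plant 3 under drought, 40 (12.2%) were also higher in irrigated Vagad and 17 were lower there. The 40 were 16.7% of the 240 higher irrigated calls. Of the 594 lower under drought, 83 (14.0%) were also lower in irrigated Vagad, which was 33.9% of the 245 lower irrigated calls, and 18 were higher there. The test of the difference itself, drought minus irrigated, called 575 probe sets higher (4.46%) and 562 lower (4.36%), together 8.83%, with plant 3 as the Vagad drought plant.

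**Figure D2:**
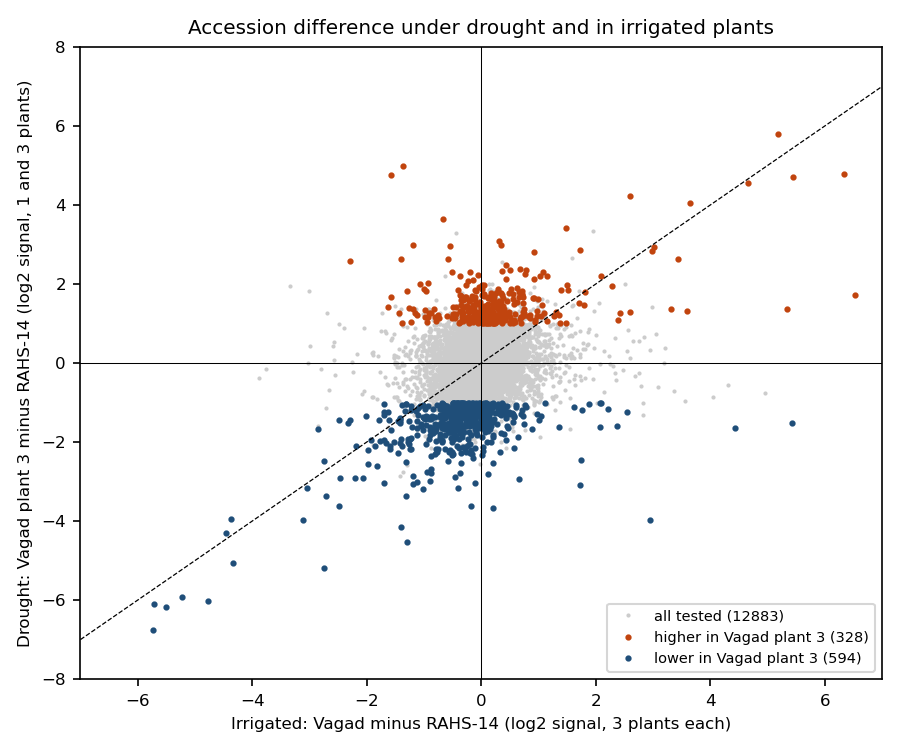
Difference between Vagad plant 3 and the mean of the 3 RAHS-14 plants under drought (vertical, log2 signal) against the difference between Vagad and RAHS-14 in irrigated plants (horizontal, log2 signal, 3 plants each), with 1 point per probe set and the dashed line marking equal differences. The 328 reported higher and 594 reported lower probe sets spread mostly around 0 on the horizontal axis, with 40 and 83 called the same way in irrigated plants.

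Names were given to 1043 of the tested probe sets, and 116 of the 922 had one, 46 higher and 70 lower. The names are top hits in Arabidopsis from lists that the study drew from these same arrays, so a group's direction is not independent evidence. Probe sets ending in s_at or x_at can match several transcripts, such as copies of a gene family. Keyword lists were made from the names. The 1043 named probe sets had larger shares of higher and of lower ones than all probe sets tested. A list's excess over all probe sets therefore need not be particular to that list. Several lists beyond those given at the end of this paragraph also had shares above those over all probe sets. They included the auxin, aquaporin and ubiquitin lists for higher, and the flavonoid list for lower. Each list's count in plant 3 stands against 2.55% higher and 4.61% lower over all probe sets, and a list with a share close to these is described by its members only. Lower were 5 of 22 in the list for starch and sugar (22.7%), 4 of 6 for senescence (66.7%) and 4 of 30 for heat shock (13.3%), and higher were 5 of 55 for transporters (9.09%) and 4 of 55 for the cell wall (7.27%).

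**Figure D3:**
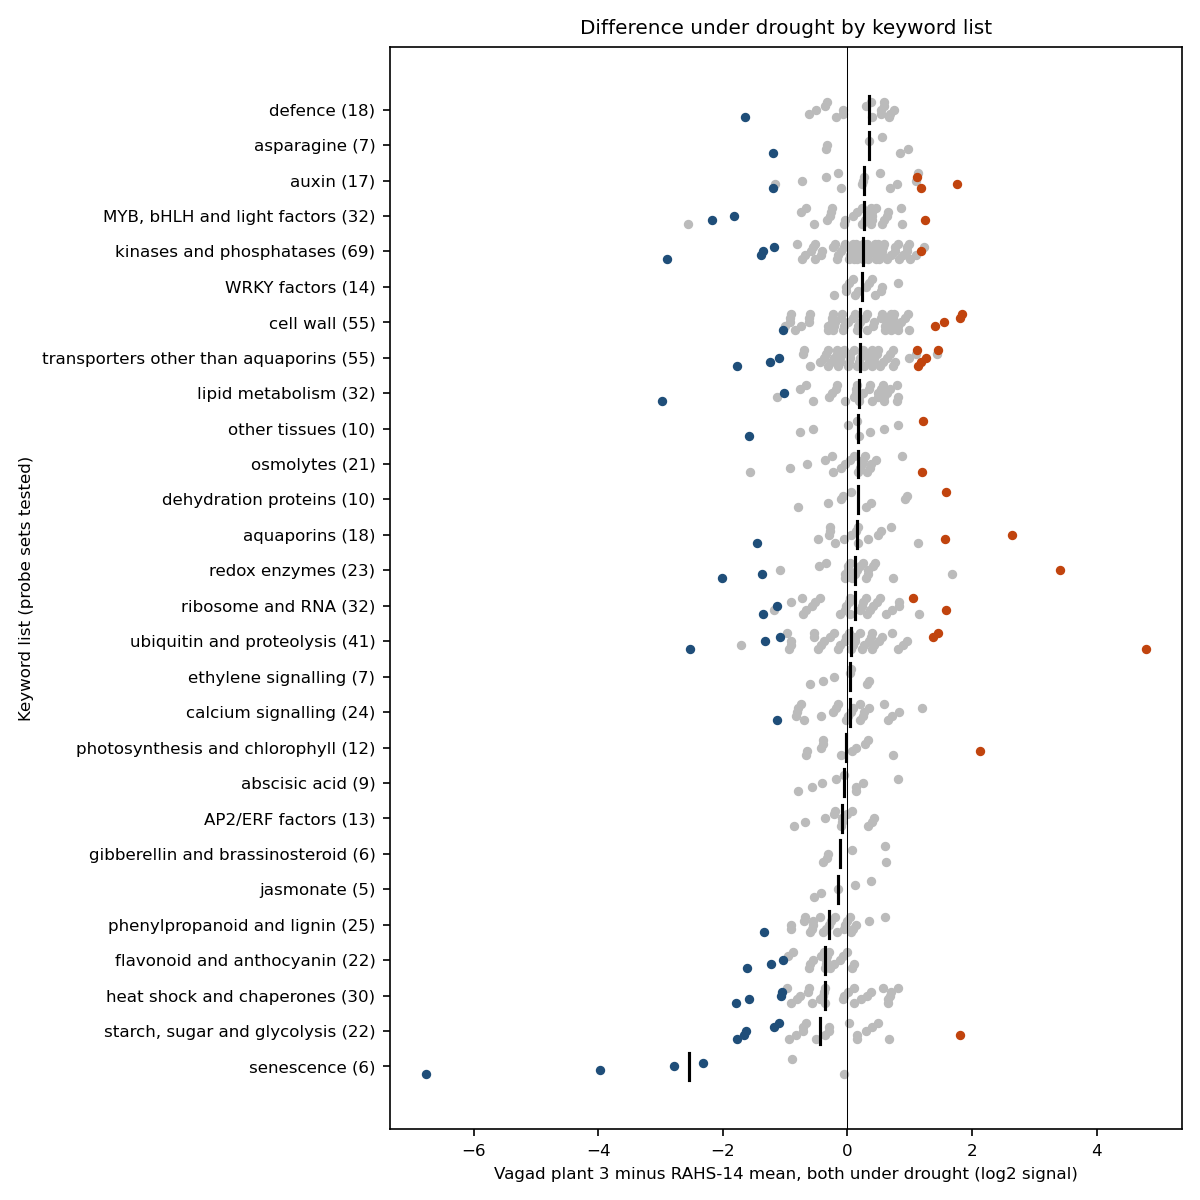
Difference between Vagad plant 3 and the RAHS-14 mean under drought (log2 signal) for the tested members of each keyword list, with the list's median as a black bar. Reported members are red where higher and blue where lower, and grey points were not reported, either for missing the thresholds or because the mean of the 3 Vagad plants lay on the other side. The senescence list has its median at -2.55, and the medians of the other lists lie between -0.44 and 0.34.

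Senescence-associated transcripts were lower in Vagad plant 3. Of 6 probe sets, 4 were lower and 0 higher, with a median difference of -2.55 against 0.02 over all probe sets. All 3 Vagad plants were below all RAHS-14 plants at only 1 of the 6, Ghi.743.1.S1_at (16.7%, against 21.8% of all probe sets). The senescence-associated protein of Ghi.743.1.S1_at had signals of 4.17, 7.79 and 4.33 in Vagad drought plants 1, 2 and 3, against 11.17, 11.01 and 11.12 in RAHS-14 drought. All 3 Vagad plants were far below RAHS-14, by -6.77 ± 0.43 (SE) for plant 3 (limma adjusted p = 7.5e-05). It was lower in the 3-plant comparison too (-5.67, limma adjusted p = 0.0149) and in irrigated Vagad, where the signals were 5.87, 5.07 and 4.38 against 10.78, 10.89 and 10.84, so the low level in Vagad was not limited to drought.

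A different pattern was seen at the senescence-associated protein of Ghi.710.1.S1_s_at. Its signals were 9.01, 10.11 and 4.88 in Vagad drought plants 1, 2 and 3 and 8.79, 8.78 and 8.98 in RAHS-14 drought, so plants 1 and 2 lay above the RAHS-14 plants and only plant 3 was lower (-3.97 ± 0.25, limma adjusted p = 7.5e-05). In irrigated plants Vagad was the higher accession, with 6.26, 6.71 and 6.56 against 3.37, 3.93 and 3.37 in RAHS-14. The accession difference thus ran in opposite directions in the 2 watering conditions, and differed between them by -6.92 (limma adjusted p = 7.53e-06), the value resting on plant 3.

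SAG101, a carboxylesterase that takes part in senescence and in immune signalling in Arabidopsis, is represented by Ghi.3440.1.A1_at. It was at the floor of 3.37 in Vagad drought plants 1 and 3 and read 8.04 in plant 2, against 6.20, 6.09 and 6.17 in RAHS-14. The plant 3 difference of -2.79 (limma adjusted p = 0.000101) is therefore a bound, at least that far below. A further senescence-associated protein, Ghi.312.1.S1_at, had 8.49, 3.37 and 6.02 in Vagad drought against 8.63, 7.97 and 8.42 in RAHS-14, with plant 1 inside the RAHS-14 range and plants 2 and 3 below it (plant 3, -2.31 ± 0.38, limma adjusted p = 0.00402). The other 2 members of the list were not called: Ghi.1970.1.S1_s_at differed by -0.06 and GhiAffx.3459.1.A1_s_at by -0.90.

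Among 18 aquaporin probe sets 2, both of the tonoplast, were higher in plant 3 than in RAHS-14 and 1 was lower, with a median difference of 0.15. With the arrays aligned at their medians 1 was higher and 1 lower. Tonoplast intrinsic protein 2 (Ghi.6473.1.S1_at) had signals of 5.46, 9.14 and 7.97 in Vagad drought plants 1, 2 and 3, against 5.58, 5.08 and 5.34 in RAHS-14 drought. Plant 1 lay within the RAHS-14 range, and plants 2 and 3 above it. In irrigated plants the signals were 8.99, 9.13 and 9.33 in Vagad against 9.77, 9.78 and 9.65 in RAHS-14, so the droughted RAHS-14 plants and plant 1 were low and plant 3 lay nearer the irrigated level. The plant 3 difference was 2.64 ± 0.19 (limma adjusted p = 0.000111), and it exceeded the irrigated difference of -0.58 by 3.22 (limma adjusted p = 0.000117).

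A gamma tonoplast intrinsic protein (Ghi.10817.1.S1_s_at) had 10.28, 12.57 and 11.05 in Vagad drought and 9.43, 9.43 and 9.60 in RAHS-14 drought. All 3 Vagad plants exceeded all 3 RAHS-14 plants, plant 3 by 1.56 ± 0.14 (limma adjusted p = 0.000246), while irrigated plants of both accessions read between 10.82 and 11.24. Another probe set of that name, Gra.2798.2.S1_s_at, had 10.75, 8.84 and 12.13 in Vagad drought against 10.98 to 11.01 in RAHS-14. There plant 3 was 1.13 higher and met the thresholds, but plants 1 and 2 were below RAHS-14, so it is not among the reported probe sets. The remaining tonoplast probe sets did not pass, at 0.69 for Ghi.4573.1.S1_at and -0.28 for Ghi.6506.1.S1_s_at.

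The single lower aquaporin belonged to the plasma membrane. GraAffx.9255.1.S1_x_at had 3.90, 7.67 and 6.91 in Vagad drought and 8.53, 8.43 and 8.12 in RAHS-14 drought, with all Vagad plants lower and plant 3 lower by -1.45 ± 0.32 (limma adjusted p = 0.0133). It was lower in irrigated Vagad as well (-2.29, limma adjusted p = 0.000255). Other plasma membrane probe sets were not called, such as Ghi.1478.1.S1_s_at at 0.14 and GraAffx.33059.2.S1_s_at at -0.21 in plant 3.

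**Figure D4:**
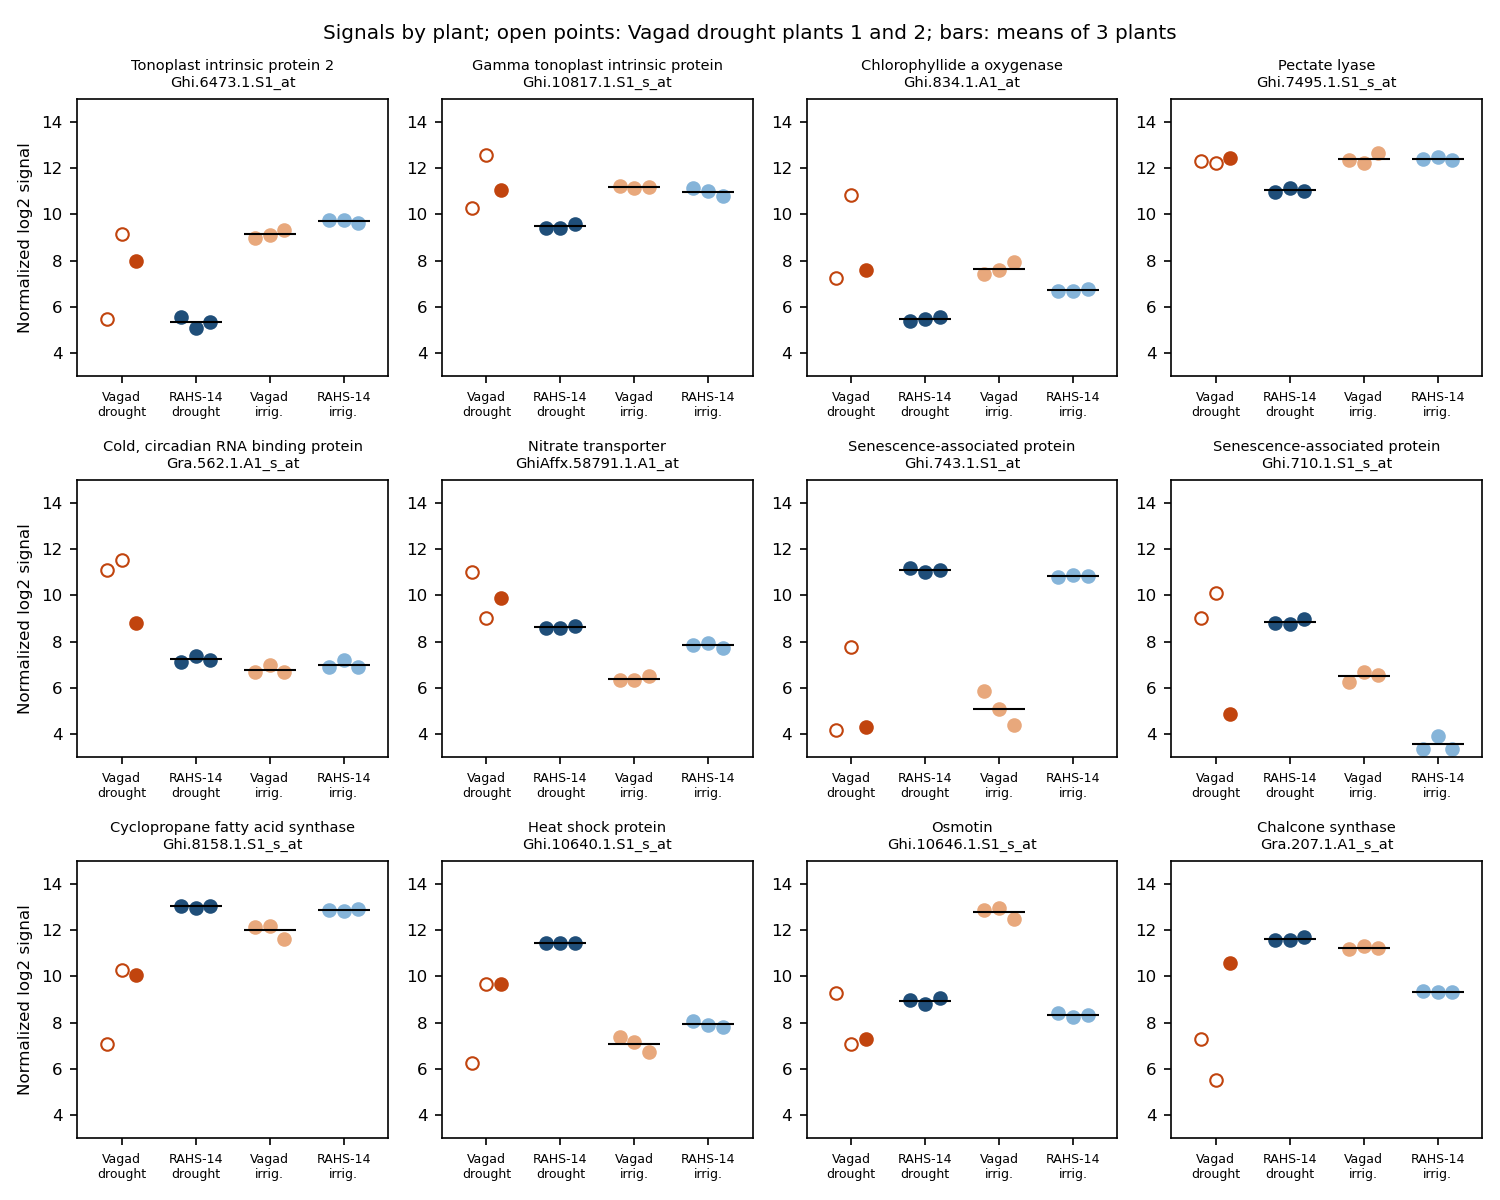
Normalized log2 signal of 12 probe sets in each plant, by group, with open points for Vagad drought plants 1 and 2, filled points for all other plants, and bars for the mean of 3 plants in the other 3 groups. Tonoplast intrinsic protein 2 reads 7.97 in Vagad drought plant 3 and at most 5.58 in RAHS-14 drought, and the senescence-associated protein of Ghi.743.1.S1_at reads 4.33 in plant 3 and at least 11.01 in RAHS-14 drought.

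Among other transporters 5 of 55 probe sets were higher in plant 3 and 3 lower, with a median of 0.20, and with the arrays aligned at their medians 2 were higher and 3 lower. A nitrate transporter (GhiAffx.58791.1.A1_at) had 11.03, 9.02 and 9.89 in Vagad drought against 8.60, 8.59 and 8.70 in RAHS-14 drought. Each Vagad plant exceeded each RAHS-14 plant, plant 3 by 1.26 ± 0.13 (limma adjusted p = 0.000465). Irrigated Vagad was the lower accession, at 6.35, 6.33 and 6.53 against 7.87, 7.95 and 7.71, and the difference between drought and irrigated was 2.70 (limma adjusted p = 3.99e-05). An amino acid transporter (GhiAffx.11094.1.A1_at) was 1.45 higher in plant 3 (limma adjusted p = 0.000496), although plant 2 read 3.55, below the RAHS-14 signals of 6.92, 6.77 and 6.78.

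Lower in plant 3 was an antiporter that carries glucose 6-phosphate across a membrane (GhiAffx.6053.1.S1_s_at). It had 7.39, 4.53 and 7.19 in Vagad drought against 9.22, 8.76 and 8.90 in RAHS-14 drought, all Vagad plants being lower (plant 3, -1.77 ± 0.37, limma adjusted p = 0.0112). Its irrigated signals were between 3.37 and 4.53 in both accessions. A potassium transporter (Ghi.7834.2.S1_s_at) was lower in both comparisons (plant 3, -1.10, limma adjusted p = 0.0051, and 3 plants, -3.22, limma adjusted p = 0.0493), and a MATE efflux protein (GraAffx.27942.1.S1_at) was higher in both (1.14, limma adjusted p = 0.00045, and 2.13, limma adjusted p = 0.0349). An ADP transporter (Ghi.4502.1.A1_s_at) read -1.25 at an adjusted p of 0.0489 by limma and lost the call without any one of the RAHS-14 plants, for example -1.23 at 0.0928 without RAHS-14 drought plant 1.

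Heat shock proteins were lower in plant 3 at 4 of 30 probe sets and higher at 0, with a median of -0.36. All 3 Vagad plants were below all RAHS-14 plants at 11 of the 30 (36.7%, against 21.8% of all probe sets), and above them at 1 (3.33%, against 9.9%). With the quantile target from all 12 arrays 2 were lower and 0 higher. The heat shock protein of Ghi.10640.1.S1_s_at had 6.27, 9.67 and 9.66 in Vagad drought and 11.44, 11.44 and 11.45 in RAHS-14 drought. The Vagad plants were well below RAHS-14 (plant 3, -1.78 ± 0.21, limma adjusted p = 0.000904), yet plants 2 and 3 were above the irrigated plants of both accessions, which read between 6.75 and 8.08.

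HSFA2, a transcription factor that drives heat shock genes in Arabidopsis (Ghi.10292.1.S1_s_at), had 7.80, 10.09 and 8.19 in Vagad drought against 9.31, 9.19 and 9.29 in RAHS-14. Plants 1 and 3 were lower and plant 2 higher than RAHS-14 (plant 3, -1.07 ± 0.17, limma adjusted p = 0.00325). The 2 other members called were GhiAffx.41577.1.S1_s_at (-1.58, limma adjusted p = 0.00334) and GhiAffx.17865.1.S1_at (-1.05, limma adjusted p = 0.0129), which fell short of the fold, at -0.91, without RAHS-14 drought plant 2 and where Vagad plant 2 lay within the RAHS-14 range. DnaJ co-chaperones were not called, their 5 probe sets ranging from -0.06 to 0.81.

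Genes of flavonoid and anthocyanin synthesis were on the low side in droughted Vagad and on the high side in irrigated Vagad. Under drought 3 of 22 were lower and 0 higher in plant 3, with a median of -0.35, and all 3 Vagad plants were below all RAHS-14 plants at 17 of the 22 (77.3%, against 21.8% of all probe sets). Most members had high signals, while the share over all probe sets is not matched for signal level, and plants 1 and 2 enter both. The part of signal level was not tested. In irrigated plants 5 were higher and 0 lower, with a median of 0.74, against 1.86% higher and 1.9% lower over all probe sets. The difference between drought and irrigated was called lower at 14 of 22 and higher at 0, with a median of -1.17, against 4.36% called lower and a median of 0.00 over all probe sets.

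Chalcone synthase, the entry enzyme of the pathway, is represented by Gra.207.1.A1_s_at, which had 7.28, 5.51 and 10.59 in Vagad drought and 11.60, 11.59 and 11.69 in RAHS-14 drought. Irrigated Vagad had 11.17, 11.31 and 11.23, above the 9.37, 9.33 and 9.34 of irrigated RAHS-14. Under drought plant 3 was lower by -1.04 ± 0.10 (limma adjusted p = 0.000368), and the difference from the irrigated contrast was -2.93 (limma adjusted p = 5.82e-06). The RAHS-14 plants thus read higher under drought than when irrigated, and plant 3 did not.

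Naringenin 3-dioxygenase, which makes dihydroflavonols (Gra.2794.2.S1_s_at), had 7.11, 10.88 and 8.88 in Vagad drought against 10.49, 10.36 and 10.63 in RAHS-14. Plants 1 and 3 lay below RAHS-14 and plant 2 above (plant 3, -1.62 ± 0.20, limma adjusted p = 0.000975). In irrigated plants Vagad was higher by 2.08 (limma adjusted p = 2.5e-05), and the difference between conditions was -3.70 (limma adjusted p = 6.24e-05). The third member called was a TRANSPARENT TESTA transcription factor (Ghi.8087.1.S1_s_at, -1.22, limma adjusted p = 0.00435), with a difference of 0.01 in irrigated plants (limma adjusted p = 0.975). Other chalcone synthase probe sets differed by -0.88 to -0.30 in plant 3 without being called. The 3 isoflavone reductase probe sets were not called and ranged from -0.07 to 0.11. Flavanone 3-hydroxylase is another name of naringenin 3-dioxygenase, and the probe set of that name (Ghi.7987.1.S1_s_at) was not called, at -0.36. Its signals were stronger, at 13.56, 13.53 and 13.42 in RAHS-14 drought. It differed by 0.57 in irrigated plants and by -0.93 between the conditions.

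In phenylpropanoid and lignin synthesis 1 of 25 probe sets was lower and 0 higher in plant 3 (median -0.30), and without the filter on low signals 1 was higher and 0 lower. With all Vagad plants, 2 were lower with 3 plants against 3. Of the coumarate-CoA ligase probe sets only Gra.787.2.A1_s_at passed, and the others differed by -0.57, -0.26 and 0.06 in plant 3. Coumarate-CoA ligase, which activates phenolic acids (Gra.787.2.A1_s_at), had 9.57, 9.18 and 11.29 in Vagad drought and 12.79, 12.48 and 12.65 in RAHS-14 drought. All Vagad plants were lower, plant 3 by -1.35 ± 0.34 (limma adjusted p = 0.0222, and 0.0524 without RAHS-14 drought plant 1) and the 3-plant mean by -2.63 (limma adjusted p = 0.0323). A cinnamoyl-CoA reductase-related probe set (GhiAffx.50774.1.S1_s_at) passed only with 3 plants (-1.49, limma adjusted p = 0.0459), and plant 3 differed by -0.69, under the fold required.

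Cell wall genes were higher in plant 3 at 4 of 55 probe sets and lower at 1, with a median of 0.21. This direction depended on the scaling: with the arrays aligned at their medians 0 were higher and 3 lower. A pectate lyase, an enzyme that cuts pectin (Ghi.7495.1.S1_s_at), had 12.33, 12.23 and 12.44 in Vagad drought against 10.99, 11.13 and 11.02 in RAHS-14 drought. The 3 Vagad plants agreed closely and lay above RAHS-14, plant 3 by 1.40 ± 0.16 (limma adjusted p = 0.000843) and the mean by 1.29 (limma adjusted p = 0.0278). Irrigated plants of both accessions read 12.24 to 12.68, so the droughted RAHS-14 plants were the group that stood apart. With arrays aligned at their medians the 3-plant difference turned to -0.60.

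Another pectate lyase (GhiAffx.6556.1.S1_at) had 11.76, 10.50 and 12 in Vagad drought and 10.11, 10.21 and 10.16 in RAHS-14 drought, all Vagad plants being higher (plant 3, 1.84 ± 0.15, limma adjusted p = 0.000184). The third pectate lyase probe set, Ghi.10256.1.S1_at, was under the fold at 0.99 (limma adjusted p = 0.019). EXORDIUM LIKE 5 (GhiAffx.8384.3.S1_a_at), of a family tied to growth by cell expansion in Arabidopsis, was 1.55 higher in plant 3. Another probe set of that name, GhiAffx.8384.1.S1_x_at, differed by 0.32 and was not called. The lower member of the list, a structural constituent of the cell wall (Ghi.2060.2.S1_x_at), differed by -1.04, with all Vagad plants below RAHS-14. A hydroxyproline-rich glycoprotein of the wall (Ghi.4009.1.A1_at) was 1.81 higher (limma adjusted p = 0.0078), but plant 1 was at the floor.

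Of 12 photosynthesis probe sets 1 was higher and 0 lower in plant 3, with a median of -0.02. It was chlorophyllide a oxygenase, which makes chlorophyll b (Ghi.834.1.A1_at). It had 7.27, 10.83 and 7.60 in Vagad drought against 5.39, 5.48 and 5.55 in RAHS-14 drought, with no overlap. Plant 3 was 2.13 ± 0.17 higher (limma adjusted p = 0.000187), close to the irrigated Vagad signals of 7.43, 7.61 and 7.94, while irrigated RAHS-14 read 6.71, 6.69 and 6.79.

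Starch, sugar and glycolysis genes were lower in plant 3 at 5 of 22 probe sets and higher at 1, with a median of -0.44. Besides the glucose 6-phosphate antiporter, these were 2 probe sets named for glyceraldehyde 3-phosphate dehydrogenase (Ghi.3081.1.S1_s_at, -1.65, limma adjusted p = 0.0129, and Gra.2791.2.S1_x_at, -1.63, limma adjusted p = 0.0193), phosphoenolpyruvate carboxylase (GhiAffx.5365.1.A1_at, -1.19, limma adjusted p = 0.0192) and phosphoglycerate kinase (Gra.1950.1.A1_x_at, -1.10, limma adjusted p = 0.00992). At each of these 4, plant 1, plant 2 or both lay above the RAHS-14 range. A 2-phosphoglycerate kinase-related probe set (GraAffx.16062.1.S1_s_at) was 1.80 higher (limma adjusted p = 0.0196), with plant 2 at the floor. The sucrose synthase probe set was not called (-0.51).

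Among redox enzymes 1 of 23 was higher and 2 lower, with a median of 0.13. A quinone reductase (Gra.2250.1.A1_s_at) had 7.43, 3.41 and 7.03 in Vagad drought and 3.58, 3.37 and 3.89 in RAHS-14 drought, where it was near the floor. Plants 1 and 3 were above RAHS-14 and plant 2 within its range (plant 3, 3.42 ± 0.39, limma adjusted p = 0.000791). It was above the median signal on 3 arrays, all Vagad, and was not tested without Vagad irrigated plant 2. RADICAL-INDUCED CELL DEATH1 (Ghi.3700.3.A1_s_at), which in Arabidopsis regulates responses to oxidants, had 3.63, 3.37 and 5.74 in Vagad drought against 7.17, 8.00 and 8.11 in RAHS-14. All Vagad plants were lower, plant 3 by -2.02 ± 0.41 (limma adjusted p = 0.00956) and the mean by -3.52 (limma adjusted p = 0.0231). A tau class glutathione S-transferase (GhiAffx.2752.1.S1_at), of the enzymes that join glutathione to reactive compounds, was lower in both comparisons (-1.38 and -1.68), although no drought array was above the median signal there.

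Osmolyte genes gave 1 of 21 higher and 0 lower in plant 3, and 1 each way with the arrays aligned at their medians. Myo-inositol oxygenase (Ghi.8187.2.A1_at) had 7.68, 7.66 and 6.14 in Vagad drought and 5.01, 5.06 and 4.77 in RAHS-14 drought, without overlap (plant 3, 1.20 ± 0.29, limma adjusted p = 0.0188, and 3 plants, 2.22, limma adjusted p = 0.0322). The 3-plant call was kept in 0 of 12 fits that left out a plant, and the 3 Vagad drought arrays were the only ones above the median signal. P5CS, the enzyme that commits glutamate to proline, was not called at either probe set, with plant 3 differences of -0.66 and -0.37. Choline kinase (Gra.256.3.S1_s_at) was lower with 3 plants (-1.97, limma adjusted p = 0.0368) and under the fold in plant 3 (-0.92). Asparagine synthase, which stores nitrogen in asparagine (Gra.1614.2.S1_x_at), was the only 1 of 7 in its list to pass. It had 10.33, 9.26 and 10.49 in Vagad drought against 11.77, 11.68 and 11.59 in RAHS-14, all Vagad plants being lower (plant 3, -1.19 ± 0.12, limma adjusted p = 0.000463, and 3 plants, -1.65, limma adjusted p = 0.0335).

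A glycine-rich RNA-binding protein named for cold and circadian control (Gra.562.1.A1_s_at) was the only 1 of 10 in the dehydration list to pass. It had 11.11, 11.53 and 8.82 in Vagad drought against 7.11, 7.40 and 7.21 in RAHS-14 drought, and irrigated plants of both accessions read 6.69 to 7.21. The Vagad drought plants were above all others, plant 3 by 1.58 ± 0.18 (limma adjusted p = 0.000718) and the mean by 3.25 (limma adjusted p = 0.0281), and the difference from the irrigated contrast was 1.80 (limma adjusted p = 0.00128).

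Osmotin, a pathogenesis-related protein that also accumulates under salt and water stress (Ghi.10646.1.S1_s_at), was the only 1 of 18 in the defence list to pass. Its signals were 9.29, 7.08 and 7.30 in Vagad drought and 8.98, 8.80 and 9.05 in RAHS-14 drought. Plants 2 and 3 were below RAHS-14 and plant 1 above it (plant 3, -1.65 ± 0.19, limma adjusted p = 0.000834). In irrigated Vagad the signals were 12.87, 12.97 and 12.47, far above the 8.42, 8.25 and 8.33 of irrigated RAHS-14. The accession difference under drought minus that in irrigated plants was -6.09 (limma adjusted p = 4.12e-06), with all 3 droughted Vagad plants below all 3 irrigated ones.

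A mannose-binding lectin (GhiAffx.3185.1.S1_at) was also lower in plant 3 and higher in irrigated Vagad. It had 6.22, 3.88 and 9.68 in Vagad drought against 11.26, 11.37 and 11.20 in RAHS-14 drought, and irrigated Vagad exceeded irrigated RAHS-14 by 2.36 (limma adjusted p = 9.05e-07). Under drought plant 3 was lower by -1.59 (limma adjusted p = 0.000157), a difference of -3.96 between the conditions (limma adjusted p = 4.12e-06). An oxidoreductase (Gra.275.1.S1_s_at) differed by -1.16 under drought and by 2.21 in irrigated plants, a difference of -3.37 (limma adjusted p = 1.49e-05).

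Auxin genes were higher at 3 and lower at 1 of 17 probe sets. An auxin-responsive protein (GhiAffx.6062.1.S1_at) had 9.72, 9.52 and 6.82 in Vagad drought and 5.39, 5.06 and 4.72 in RAHS-14 drought. There was no overlap, and both comparisons passed (plant 3, 1.76 ± 0.22, limma adjusted p = 0.00104, and 3 plants, 3.63, limma adjusted p = 0.0278). Irrigated plants read 7.80 to 8.67, so the droughted RAHS-14 plants were the lowest group. AUXIN RESPONSE FACTOR 9 (Ghi.10569.1.S1_s_at) was 1.19 higher in plant 3 and 1.27 higher in irrigated Vagad. The repressor IAA16 (GhiAffx.39930.1.S1_at) was lower by -1.19 (limma adjusted p = 0.00584). An enzyme that joins auxin to amino acids (Ghi.4318.3.S1_s_at) was 1.11 higher, with plant 2 below the RAHS-14 range. It lost the call without RAHS-14 drought plant 1 (1.00) or 2 (0.96), and it was above the median signal on Vagad arrays only.

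In the lists of WRKY factors (14 probe sets), AP2/ERF factors (13), ethylene (7), abscisic acid (9), jasmonate (5) and gibberellin and brassinosteroid (6), limma called 0 in either direction in plant 3, and 0 passed even at an unadjusted p under 0.05 with the fold of 2. WRKY differences ranged from -0.22 to 0.81 and those of 8 ERF probe sets from -0.87 to 0.43. These families are regulators of stress and pathogen responses.

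Among MYB, bHLH and light factors 1 of 32 was higher and 2 lower. A MYB domain protein (GarAffx.37322.1.S1_s_at) had 3.37, 5.40 and 5.95 in Vagad drought against 7.60, 7.81 and 7.88 in RAHS-14 drought, all lower (plant 3, -1.81 ± 0.22, limma adjusted p = 0.00101, and 3 plants, -2.86, limma adjusted p = 0.0323). A bHLH protein (GhiAffx.18998.1.A1_at) was lower in plant 3 by -2.17 (limma adjusted p = 0.00252). The B-box zinc finger protein of GhiAffx.22893.1.A1_s_at, of a family of light and clock regulators, was higher with 10.16, 10.63 and 8.74 in Vagad drought against 7.31, 7.54 and 7.63 in RAHS-14 (plant 3, 1.24, limma adjusted p = 0.0115, and 3 plants, 2.35, limma adjusted p = 0.0322).

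Among kinases and phosphatases 4 of 69 probe sets were lower (5.8%, against 4.61% of all probe sets) and 1 higher (1.45%, against 2.55%), with a median of 0.25. A leucine-rich repeat kinase (GhiAffx.7472.1.A1_at) had 6.80, 7.0 and 6.42 in Vagad drought against 9.45, 9.41 and 9.12 in RAHS-14 drought. The Vagad plants lay close together and below RAHS-14, plant 3 by -2.90 ± 0.33 (limma adjusted p = 0.000773) and the mean by -2.58 (limma adjusted p = 0.00692). Irrigated Vagad was lower too (-2.21, limma adjusted p = 0.000377). Protein kinases at GhiAffx.64141.1.A1_at (-1.35) and Ghi.8589.2.S1_s_at (-1.18) were also lower in plant 3, but at GhiAffx.64141.1.A1_at plant 2 read 7.76, above the RAHS-14 signals of 6.39, 6.31 and 6.53. A phosphatase-associated protein (GraAffx.23297.1.A1_s_at, -1.39, limma adjusted p = 0.0441) kept the call in only 2 of 9 fits that left out a plant, with values of -1.46 to -1.31 in those that lost it. In the calcium list 1 of 24 was lower, the calmodulin-binding IQD3 (GarAffx.37324.1.S1_s_at, -1.14, limma adjusted p = 0.0315, and -0.92 without RAHS-14 drought plant 1).

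Ubiquitin and proteolysis genes were evenly divided, 3 of 41 higher and 3 lower. BIG BROTHER, a ubiquitin ligase that limits organ size in Arabidopsis (GraAffx.9185.1.S1_s_at), had 6.42, 6.74 and 9.98 in Vagad drought and 5.08, 5.63 and 4.85 in RAHS-14 drought. It was above the median signal on Vagad arrays only, so it entered the test only through the accession where it was high. The Vagad plants were all higher, plant 3 by 4.79 ± 0.35, and irrigated Vagad was higher by 6.34. Drought minus irrigated was -1.55, so the difference was smaller under drought. Because of the filter these sizes are given without a test. A ubiquitin ligase (Ghi.1503.1.S1_s_at) had 3.37, 5.60 and 5.23 in Vagad drought against 7.69, 7.86 and 7.70 in RAHS-14 drought. All Vagad plants were lower (plant 3, -2.52 ± 0.21, limma adjusted p = 0.000186, and 3 plants, -3.02, limma adjusted p = 0.0231), while in irrigated plants the accessions differed by 0.20 (limma adjusted p = 0.374). The ligase of Gra.398.2.S1_s_at, called higher at 1.38, read 4.99 in plant 3, 3.37 in plants 1 and 2, and 3.37 to 3.78 in RAHS-14 drought, near the floor. It was above the median signal only on the 3 irrigated Vagad arrays and was not tested without any one of them. A serine carboxypeptidase (GraAffx.30457.1.S1_s_at) was higher in both comparisons (1.45 and 2.06).

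Among lipid genes 2 of 32 probe sets were lower (6.25%, against 4.61% of all probe sets) and 0 higher, with a median of 0.18. Cyclopropane fatty acid synthase, which adds a methylene group to unsaturated fatty acids (Ghi.8158.1.S1_s_at), had 7.09, 10.27 and 10.05 in Vagad drought and 13.06, 12.98 and 13.05 in RAHS-14 drought. All Vagad plants were lower, plant 3 by -2.98 ± 0.19 (limma adjusted p = 7.57e-05) and the mean by -3.90 (limma adjusted p = 0.0278). Irrigated Vagad read 12.13, 12.20 and 11.64, against 12.89, 12.85 and 12.92 in irrigated RAHS-14, and the difference between conditions was -2.08 (limma adjusted p = 0.001). Phospholipase A 2A (GhiAffx.19570.1.S1_at, -1.02 in plant 3) was above the median signal only on the 3 irrigated Vagad arrays, so its irrigated difference is not given. It was not tested without any one of these arrays, and without RAHS-14 drought plant 2 it was -0.86.

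In the ribosome and RNA list 2 of 32 were higher and 2 lower. Beside the cold and circadian protein these were a 60S ribosomal protein (GhiAffx.27665.1.S1_s_at, 1.05, and 0.89 without RAHS-14 drought plant 1), an RNA recognition motif protein (Ghi.4965.1.A1_s_at, -1.35 in plant 3 and -3.59 with 3 plants) and a helicase (GhiAffx.13494.1.S1_s_at, -1.12, with a limma adjusted p of 0.0502 without RAHS-14 drought plant 1). The 60S protein was above the median signal only on the 3 Vagad drought arrays, and its 3-plant call was kept in 0 of 12 fits that left out a plant. The nodulin GhiAffx.1302.1.S1_x_at of the other tissue list was lower (-1.59), with plant 1 within the RAHS-14 range, and the nodulin GhiAffx.6438.1.S1_at higher (1.22), with plant 2 below that range. GhiAffx.6438.1.S1_at was also higher in irrigated Vagad, by 1.36.

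Named genes outside these lists included some of the largest differences. A hydrolase with an alpha/beta fold (Gra.2885.1.S1_s_at) had 3.37, 4.91 and 6.58 in Vagad drought and 3.41, 3.95 and 3.48 in RAHS-14 drought. Plants 2 and 3 were above RAHS-14, plant 3 by 2.97 ± 0.23 (limma adjusted p = 0.000157), and irrigated plants of both accessions read 5.93 to 6.76, so plant 3 read at the irrigated level. A GCIP-interacting protein (GhiAffx.8275.1.S1_at) had 7.22, 4.77 and 4.94 in Vagad drought against 9.17, 8.91 and 9.17 in RAHS-14 drought. It was lower in both comparisons (plant 3, -4.14 ± 0.19, limma adjusted p = 9.72e-06, and 3 plants, -3.44, limma adjusted p = 0.0202).

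A copper-binding oxidoreductase (Ghi.2396.1.S1_s_at) had 8.94, 8.20 and 8.23 in Vagad drought and 6.44, 6.40 and 6.40 in RAHS-14 drought. The groups did not overlap, plant 3 being higher by 1.82 ± 0.10 (limma adjusted p = 3.05e-05) and the mean by 2.04 (limma adjusted p = 0.00832), and irrigated plants read 8.34 to 8.72. Another probe set of that name (Ghi.9253.2.A1_a_at) was 2.03 higher in plant 3 with plant 2 at 3.53, below RAHS-14, and the difference between conditions was 2.96 (limma adjusted p = 0.00109). Copper amine oxidase (GraAffx.27075.1.S1_at), which oxidizes polyamines, was lower in all 3 Vagad plants, at 7.06, 10.35 and 9.18 against 11.28, 11.18 and 11.26 (plant 3, -2.06, limma adjusted p = 9.42e-05).

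ALFIN-LIKE 2, a reader of methylated histones (Ghi.7720.1.S1_at), had 4.44, 3.43 and 6.05 in Vagad drought against 8.34, 8.16 and 8.16 in RAHS-14 drought. All Vagad plants were lower (plant 3, -2.16 ± 0.14, limma adjusted p = 7.5e-05, and 3 plants, -3.58, limma adjusted p = 0.0162), and irrigated Vagad was lower by -1.59. A RanBPM-related protein (Ghi.6585.1.S1_at) was higher, at 11.16, 10.34 and 9.45 against 8.29, 7.73 and 7.49, and a LOB domain protein (GhiAffx.2109.1.A1_at) at 9.87, 10.12 and 8.38 against 7.31, 7.09 and 7.08. Both passed in plant 3 (1.61 and 1.22) and with 3 plants (2.48 and 2.30). A short-chain dehydrogenase (Ghi.8452.1.S1_s_at) was lower in both (-2.04 and -3.42), as was the dihydrolipoamide acetyltransferase of GhiAffx.33369.1.S1_s_at (-1.06 and -2.92), a subunit of the pyruvate dehydrogenase complex.

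Several plant 3 differences were also called the same way in irrigated plants, including genes given above without that value. Irrigated Vagad differed by -1.40 at the GCIP-interacting protein, -1.41 at RADICAL-INDUCED CELL DEATH1 and -1.26 at copper amine oxidase. It differed by -1.22 at the bHLH protein, -1.42 at the phosphatase-associated protein and 1.48 at the quinone reductase. The difference was larger under drought at the GCIP-interacting protein (by -2.74) and the quinone reductase (by 1.94). Ketopantoate hydroxymethyltransferase, the first enzyme of pantothenate synthesis (3-methyl-2-oxobutanoate hydroxymethyltransferase, Ghi.2241.2.A1_at), differed by -3.95 in plant 3 and by -4.37 in irrigated plants. A glycerophosphodiester phosphodiesterase (GhiAffx.10976.1.S1_at) differed by -2.91 and -2.47, and an octicosapeptide protein (GhiAffx.25446.1.S1_at) by -2.60 and -1.82. Plant 1 or plant 2 was within the RAHS-14 drought range at the first of these 3 and above it at the other 2. A methyladenine glycosylase (GhiAffx.7836.1.S1_at, 1.87, and a limma adjusted p of 0.0512 without RAHS-14 drought plant 3) and an ATP-binding protein (GraAffx.22476.1.S1_s_at, 2.21) were higher in plant 3. At the glycosylase plants 1 and 2 read 4.19 and 4.64, within the RAHS-14 range of 3.88 to 5.06. At the ATP-binding protein plant 1 was at the floor, below the RAHS-14 signals of 4.78, 5.35 and 5.81, and only Vagad arrays were above the median signal.

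Probe sets without a name gave some of the largest differences. Ghi.6528.1.S1_at had 9.99, 10.68 and 8.54 in Vagad drought against 3.58, 3.37 and 3.69 in RAHS-14 drought, and 10.57 to 12.13 in irrigated plants of both accessions. The droughted RAHS-14 plants were at or near the floor, and all other plants were high. The difference was 5.0 ± 0.15 for plant 3 (limma adjusted p = 7.4e-07) and 6.19 for 3 plants (limma adjusted p = 0.00042). It was called in all 12 fits that left out a plant, as were GraAffx.8742.1.S1_at (5.83 with 3 plants) and GhiAffx.60321.1.S1_x_at (-5.36 with 3 plants). GraAffx.8742.1.S1_at was above the median signal on Vagad arrays only, and GhiAffx.60321.1.S1_x_at on RAHS-14 arrays only. In GhiAffx.60321.1.S1_x_at plants 1 and 3 were at the floor, so its plant 3 difference of -6.02 is at least that size.

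Ghi.904.1.S1_s_at separated the accessions in both conditions. GhiAffx.12340.1.S1_at separated them in irrigated plants, but under drought only plant 3 stood well above RAHS-14. It was above the median signal on Vagad arrays only. GhiAffx.12340.1.S1_at read 9.17 in plant 3 but 3.37 and 3.56 in plants 1 and 2, against the floor of 3.37 in all 3 RAHS-14 drought plants, a difference of at least 5.80 for plant 3. Ghi.904.1.S1_s_at read 7.33, 3.37 and 3.37 in Vagad drought against 9.59, 9.53 and 9.49 in RAHS-14 drought, and was at 3.37 in all irrigated Vagad plants, so its plant 3 difference of -6.17 is also a bound. Ghi.2844.1.S1_s_at differed by -6.10 in plant 3 and -5.72 in irrigated plants, although plants 1 and 2 read 9.99 and 9.84, above RAHS-14. Ghi.1892.1.S1_at was lower in all 3 Vagad drought plants (4.32, 3.37 and 7.77 against 11.01, 10.86 and 10.75) and higher by 1.73 in irrigated Vagad.

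In the 3-plant comparison the named genes rested on the arrays more than in the plant 3 comparison. Of the 29 named probe sets chosen by the rule for the text that passed with 3 plants against 3, 0 kept the call when any one RAHS-14 drought plant was left out, and 0 were called in all 12 fits, while 2, the myo-inositol oxygenase and the 60S ribosomal protein, were called in none. Without Vagad drought plant 1, 2 or 3 the call was kept by 23, 26 and 27. Of the 76 so chosen that passed in plant 3, 63 were called in all 9 fits.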

How the data were processed

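Leaf RNA of 12 Gossypium herbaceum plants was measured on 1-colour Affymetrix cotton genome arrays, with 1 array per plant and 3 plants in each of 4 groups, taken from the sample titles. Replicates were separate potted plants. The authors summarized the images with MAS5 (version not given in the sources used here), and the deposited values are linear MAS5 signal intensities, scaled by the authors to a common trimmed mean on each array. The methods also name RMA values for the study's own analysis, which were not used here. Detection calls were not used here, so low signals were handled by a floor. Columns of the study's own comparisons (fold changes and p-values) in its gene lists were not used.

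Here the 103 controls were set aside, leaving 24029 probe sets. Each array was mapped by quantiles to the mean distribution of the 10 arrays other than Vagad drought plants 1 and 2, floored at 10.3 (3.37 on the log2 scale, the 20th percentile of that distribution) and converted to log2. The mapping gives all arrays 1 distribution over all probe sets, and a median difference of -0.72 remained between the 3-plant means over the probe sets tested. Probe sets above the median of the target, 68.7, on at least 3 of the 12 arrays were tested, 12883 in all. limma 3.58.1 in R 4.3.3 was fitted on group means, with 1 spread per probe set shared by the groups. The 3-plant comparison used all 12 arrays (prior SD 0.572). The plant 3, drought minus irrigated and irrigated comparisons used the 10 arrays without Vagad drought plants 1 and 2 (prior SD 0.132). A call needed a Benjamini-Hochberg adjusted p below 0.05 and a fold of 2 or more, and under drought also the requirement on plant 3. Tables and plots were made with Python 3.11.15, pandas 2.3.3 and matplotlib 3.10.9.

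On simulated data with 200 of 12883 probe sets changed, the 3-plant comparison recovered 81 of 100 changes of 2 log2 units and 100 of 100 of 4 units, with 10 false calls. The other 3 comparisons recovered 100 of 100 at each size with 0 false calls. The simulated noise was normal with the same SD, the prior SD of the fit, at every probe set, and the plant 3 requirement was not applied. Changes near a fold of 2 were not simulated, so the recoveries do not carry over to the measured arrays. How many changes were recovered or falsely called on the measured arrays was not tested. The number of arrays limits the precision.

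Names came from the study's gene lists, which hold 1713 of the probe sets and name 1260 (1043 tested), and keyword lists were built on those names. Named probe sets were the 10 highest and 10 lowest with 3 plants, the 15 highest and 15 lowest in plant 3, up to 4 members per list, the 5 largest each way for drought minus irrigated, and the 2 largest each way without a name. Others named to complete a list, or for holding their call in every fit, were chosen after their values were seen. The members, lists and tests were chosen with earlier results of these data known.

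Alternatives changed the quantile target, the normalization, the floor, the filter, the spread, the arrays in the fit, the test, the replicate block, the threshold, the requirement on plants, and left out each array in turn. The centring of the 3-plant differences, and dropping or centring the sign requirement on the 3-plant mean, were added after seeing the data.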

Additional observations from a re-analysis of the deposited data

Results flagged for a closer look

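Control probe sets, which enter no comparison, gave a high signal on Vagad drought plants 1 and 2. The tag controls had medians of 88.95 in plant 1 and 96.66 in plant 2, against 1.36 to 7.43 on the other 10 arrays.

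The accession difference was higher under drought than in irrigated plants at 575 probe sets and lower at 562, by limma's test of the difference itself, in which plant 3 was the single Vagad drought plant. Among named probe sets the largest positive differences, drought minus irrigated, were 3.52 for the alpha/beta fold hydrolase Gra.2885.1.S1_s_at, 3.22 for tonoplast intrinsic protein 2 (Ghi.6473.1.S1_at), 2.96 for the copper-binding oxidoreductase Ghi.9253.2.A1_a_at, 2.78 for the hydroxyproline-rich glycoprotein Ghi.4009.1.A1_at and 2.70 for the nitrate transporter GhiAffx.58791.1.A1_at. The largest negative ones were -6.92 for the senescence-associated protein Ghi.710.1.S1_s_at, -6.09 for osmotin (Ghi.10646.1.S1_s_at), -3.96 for the mannose-binding lectin GhiAffx.3185.1.S1_at, -3.70 for naringenin 3-dioxygenase (Gra.2794.2.S1_s_at) and -3.37 for the oxidoreductase Gra.275.1.S1_s_at. At Ghi.710.1.S1_s_at, osmotin and naringenin 3-dioxygenase at least 1 of the 2 other Vagad plants lay above the RAHS-14 drought plants.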

How the results depend on the processing

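The 3-plant count of 346 depended on the processing. It was 3648 with the arrays aligned at their medians (105 higher and 3543 lower, with a median difference of -1.68 over all probe sets), 1225 on the signals as deposited (585 and 640) and 1557 with differences centred on their median (1373 and 184), an alternative chosen after seeing the data. limma called 0 with only the 6 drought arrays (1383 at an unadjusted p under 0.05) and 0 with array weights (1777 unadjusted), which were 0.0138 to 0.0334 for the Vagad drought arrays. The methods' t-test gave 736 unadjusted and 2 after Benjamini-Hochberg adjustment. Leaving out each plant gave 11 to 6030. Apart from the replicate block, the other alternatives gave 275 to 478. The cause was not tested.

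For plant 3 the count of 922 became 1854 at a fold of 1.5 and 555 when all 3 Vagad plants had to lie outside the RAHS-14 range, and was 684 to 1116 otherwise, with 800 to 953 when another plant was left out. Leaving out plant 3 itself was not run, since no Vagad drought plant would remain. The split of higher and lower calls was 328 and 594, 184 and 666 with arrays aligned at their medians, and 472 and 522 without the filter. For drought minus irrigated the count of 1137 was 2042 at a fold of 1.5, 839 to 1174 under other alternatives, and 997 to 1413 without 1 plant. Its split was 575 and 562, and 414 and 760 with arrays aligned at their medians, where the median difference was -0.13. The irrigated count of 485 stayed between 336 and 556, and between 441 and 510 without 1 plant, with 308 higher and 240 lower where arrays were aligned at their medians (median difference 0.12) and 216 and 311 on the signals as deposited.

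Plants with the same number did not deviate together: 0 of 18 same-number pairs correlated above 0.1 (-0.08 to 0.06). With the replicate block the counts were 19 for 3 plants, 714 for plant 3 and 968 for drought minus irrigated. No block was run for irrigated plants.

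Of the values of named probe sets under the alternatives, 1409 kept the call in plant 3, 73 lost it and 0 changed sign. With 3 plants 405 kept it, 402 lost it and 1 changed sign, the pectate lyase of Ghi.7495.1.S1_s_at, at -0.60 with arrays aligned at their medians.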
